A study of Homo sapiens with 8 samples.

Results

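Metallothioneins and a set of genes that sense or move zinc were examined in RNA-seq counts of cells labelled A549. The set held 9 of the 58735 genes in the read count table, taken by gene name: the metallothioneins MT2A, MT1E, MT1F, MT1G, MT1M and MT1X, the transcription factor MTF1, the zinc exporter SLC30A1 and the zinc importer SLC39A10. A549 is an established human lung adenocarcinoma line. According to the labels and the study's methods, 4 libraries (EV group) came from cells transduced with an empty lentiviral vector and 4 libraries (KRT19 group) from cells transduced with a lentivirus overexpressing KRT19, both selected with puromycin as stable lines. KRT19 itself is keratin 19, a filament-forming protein of simple epithelia. No zinc or other metal treatment was named for either group. The sources used here did not say whether the replicates of a group were separate cultures or whether a line was a clone, so p-values measure the spread between these libraries, which may be technical.

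Metallothioneins are small, cysteine-rich proteins that bind zinc and copper and buffer the free zinc of the cell. MTF1 is the zinc-sensing transcription factor that binds metal response elements in the promoters of metallothionein genes and of SLC30A1. SLC30A1 carries zinc out of the cell across the plasma membrane, whereas SLC39A10 carries zinc into the cytosol.

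Total counts per library ran from 14073065 to 17054364, and 14621 genes had enough counts to be tested. KRT19 had 1 to 5 counts in each EV library and 4353 to 5147 counts in each KRT19 library, so the groups did not overlap and matched their labels. In edgeR's quasi-likelihood test with Benjamini-Hochberg adjustment its adjusted p was 5.19e-20. The labelled cell type was less certain. Of the epithelial and lung markers, KRT8 (2988 to 3857 counts) and KRT18 (4271 to 5746 counts) were abundant and KRT7 had 34 to 71 counts, but EPCAM had 0 to 3 counts, CDH1 0 to 1, NKX2-1 3 to 4 and NAPSA 1 to 6 per library, and SFTPB and SFTPC were at 0. CDKN2A, CDKN2B and MTAP, which A549 is known to have lost, had at least 466 counts in every library. AKR1B10, ALDH1A1 and ALDH3A1, known as abundant in A549, had at most 14 counts, GPX2 had 1 to 6, AKR1C1 10 to 22 and AKR1C2 14 to 47, whereas TXNRD1 and NQO1 had at least 6009. Retina markers were examined because the label text on extraction named retina. RCVRN and SAG were at 0, and PDE6B, CRX and RLBP1 had at most 6 counts in any library. Of the immune markers, CD3E was at 0, and PTPRC, CD68 and LYZ had at most 4 counts. The summed level of fibroblast markers (COL1A1, COL1A2, COL3A1, DCN, LUM, PDGFRB and THY1) was at most 3.80 CPM (counts scaled to a common library size) in any library. The cells are therefore called "cells labelled A549" throughout.

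To show what MTF1 could read in front of these genes, the 250 bases upstream of each transcription start were searched in the RefSeq promoters (build GRCh38.p14) for the core letters of the metal response element. The letters were TGCACNC and TGCGCNC on both strands, where N is any base, and no match overlapped another. The set of RefSeq promoters used here held 5 of the 9 genes: MT2A, MT1X, MTF1, SLC30A1 and SLC39A10. It had no entry for MT1E, MT1F, MT1G and MT1M, so their promoters were not searched. MT2A (chr16:56608334-56608583, plus strand) held 7 matches, MT1X (chr16:56682220-56682469, plus strand) held 4, and SLC30A1 (chr1:211579162-211579411, minus strand) held 1. MTF1 (chr1:37859593-37859842, minus strand) and both annotated starts of SLC39A10 (chr2:195656708-195656957 and chr2:195656976-195657225, plus strand) held 0. Of 35116 promoters of the same length, 24.8% held at least 1 match, 0.370% at least 4 and 0.031% at least 7. The matches are printed 5′ to 3′ on the gene's strand with up to 10 bases on each side, because MT2A and MT1X held more of them than the other 3 genes. Capitals mark the core, which appears as its reverse complement where it lies on the other strand.
MT2A, 246 bases upstream: ccgcTGCACCCagccccttcc
MT2A, 168 bases upstream: cccgcggcccGTGTGCAgagccgggtg
MT2A, 153 bases upstream: cagagccgggTGCGCCCggcccagtgc
MT2A, 139 bases upstream: cccggcccagTGCGCGCggccgggtgt
MT2A, 88 bases upstream: agcgcggggcGTGTGCAggcagcgccc
MT2A, 54 bases upstream: gcggggctttTGCACTCgtcccggctc
MT2A, 8 bases upstream: cttgccgcgcTGCACTCc
MT1X, 150 bases upstream: ggccccgcggTGCGCCCggcgctgggc
MT1X, 122 bases upstream: cacgggttgcTGCACCCggcccaggat
MT1X, 78 bases upstream: cagcaggggcGGGTGCAaggacgaggc
MT1X, 53 bases upstream: gcggggcctcTGCGCCCggccctcttc
SLC30A1, 49 bases upstream: cgggggttccGAGTGCAaagcaaagtt

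A match of letters is a description and not a bound site. The deposited rows of genes can start before the RefSeq start: the whole MT2A window of 250 bases and 46 bases of the MT1X window lay inside the genes' own deposited rows, whereas the SLC30A1 window lay outside its row. CpG pairs numbered 32 in the MT2A window, 22 in MT1X, 22 in SLC30A1, 20 in MTF1 and 18 and 25 at the starts of SLC39A10, against a median of 11 over all promoters.

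**Figure D1:**
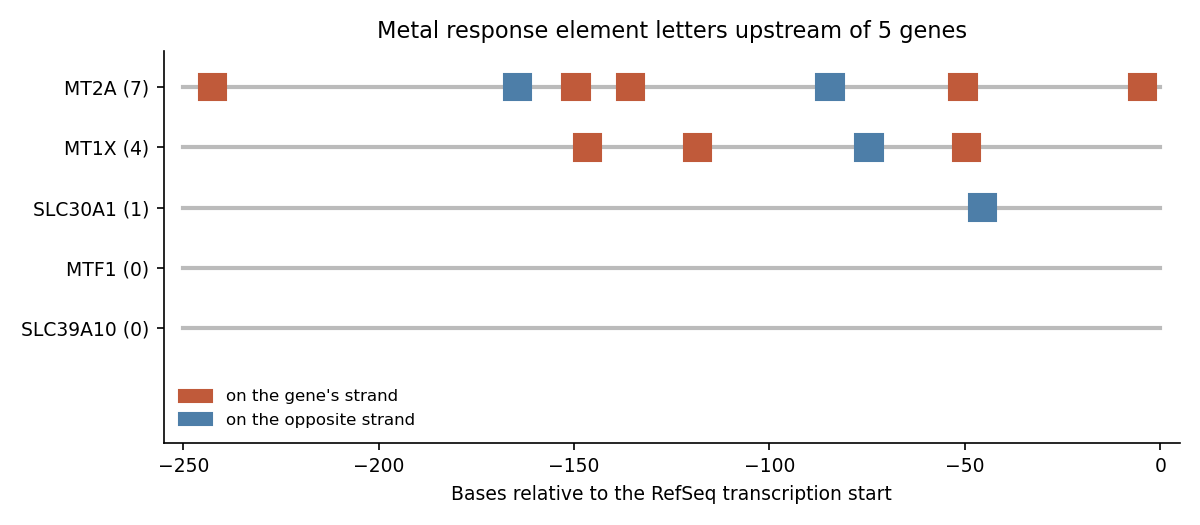
Position of the metal response element letters (boxes, drawn to their length of 7 bases) in the 250 bases upstream of the RefSeq start of 5 genes, with the number of matches after each name and the base distance on the horizontal axis. MT2A held 7 matches and MT1X 4, SLC30A1 held 1, and MTF1 and both starts of SLC39A10, drawn as 1 line, held 0.

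The metallothionein genes lie side by side on chromosome 16, and their counts were unevenly spread among them. MT2A (ENSG00000125148, chr16:56608199-56609497, coordinates of the deposited table on hg38) had 4064 to 5486 counts per library, and MT1X (ENSG00000187193, chr16:56682424-56684196) had 40 to 178. MT1E (ENSG00000169715, chr16:56625475-56627112), MT1M (ENSG00000205364, chr16:56632233-56633986), MT1F (ENSG00000198417, chr16:56657694-56660698) and MT1G (ENSG00000125144, chr16:56666731-56668065), which lie between them, had 0 counts in every one of the 8 libraries. A count of 0 allowed up to 0.176 to 0.213 CPM in a single library, and up to 0.0234 CPM over the 128073011 counts of all libraries together (3 counts, covering counting error only). These 4 genes were thus not detectable at this depth in either group, and no fold change can be given for them. Among protein-coding rows of the table, 17.2% were at 0 in all libraries.

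Absence of counts extended through the cluster. Between MT2A and MT1X, over 72926 bases, the table held 14 rows, of which 13 were at 0 in all libraries and the remaining row, the pseudogene MT1DP, had 5 counts in all. MT3, known from brain, and MT4, known from squamous epithelium, on the other side of MT2A, were also at 0. AC026461.1, which overlaps MT1X and runs past its end, was also at 0. Beyond MT1X, DPPA2P4 was at 0 and AC106779.1 had 15 counts in all. Protein-coding genes farther out on both sides were counted, with OGFOD1 at 60.8 CPM, BBS2 at 33.8 CPM and NUP93 at 123 CPM on average over the 8 libraries. In the whole table, 21 rows were named as metallothioneins, 17 of them were at 0, and the other 4 were MT2A, MT1X, MT1DP and MT1P1, a pseudogene elsewhere in the genome with 6 counts in all. Over all 58735 rows of the table, pseudogenes and non-coding genes included, 48.5% were at 0 in all libraries. The plot of counts along the cluster shows MT2A and MT1X standing alone among rows at or near 0.

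**Figure D2:**
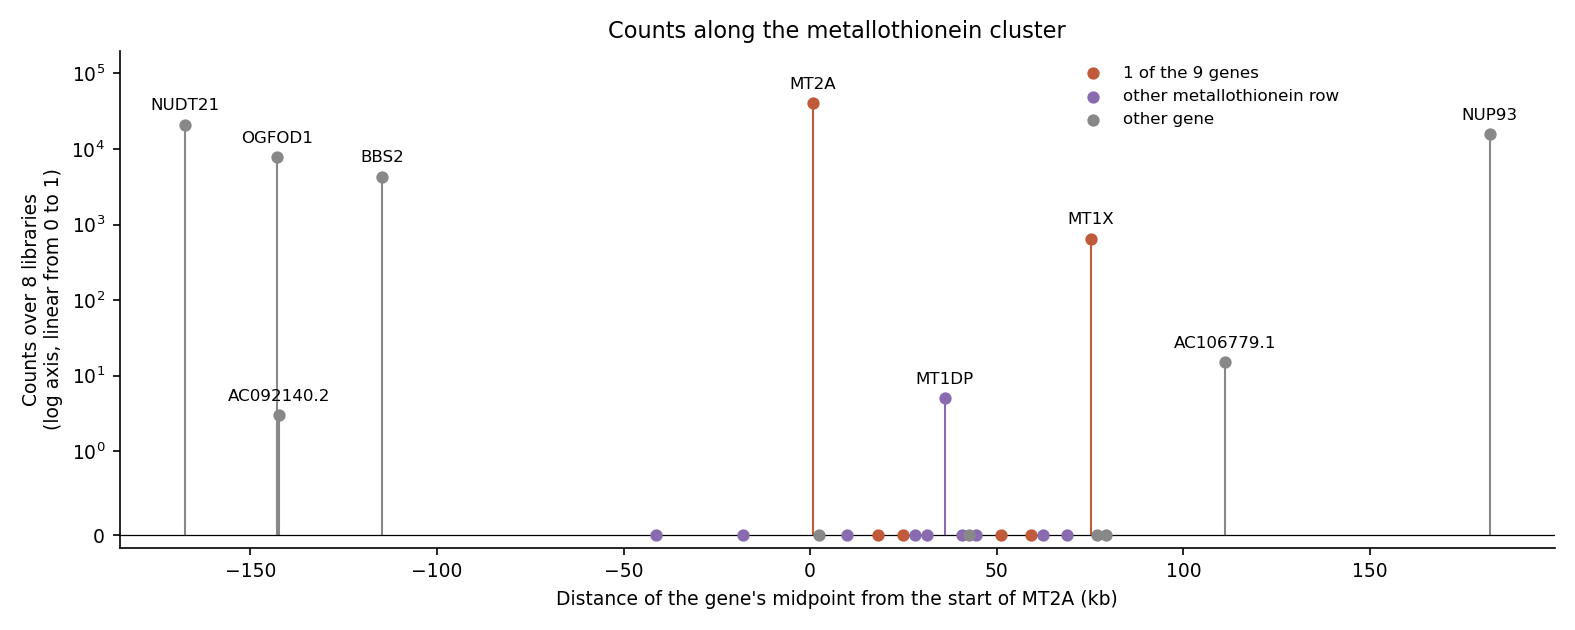
Counts summed over the 8 libraries (vertical log axis, linear from 0 to 1) for every gene of the table from NUDT21 to NUP93, at the distance of its midpoint from the start of MT2A in kb. MT2A and MT1X have counts, MT1DP has 5, and all other metallothionein rows drawn are at 0, while OGFOD1, BBS2 and NUP93 at the sides have at least 4327.

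Metallothionein genes resemble each other, and how reads matching more than 1 gene were treated was not given in the sources used here. Sharing of sequence was therefore measured from GENCODE 29 transcripts as the percent of 75-base words that also occur in genes not overlapping the gene itself. It was 0% for MT2A and MT1F, 0.231% for MT1M, 1.41% for MT1X, 1.43% for MT1E and 5.73% for MT1G. At 50 bases it was 3.02% for MT2A, 1.22% for MT1F, 9.87% for MT1M, 3.64% for MT1X, 7.10% for MT1E and 16.5% for MT1G, and at 150 bases it was 0% for all 6. MT1F, at 0 counts, was thus among the least shared metallothioneins. AC026461.1, a non-coding gene at 0 counts, overlapped 18.1% of the exon bases of MT1X on the same strand. For the other genes sharing at 75 bases was 0% for SLC30A1 and SLC39A10 and 0.415% for MTF1. Sharing was not measured for the transporters and stress genes of the other lists.

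To compare levels between genes, CPM was divided by the gene length of the table in kb. MT2A stood first with 242 ± 17.1 CPM per kb (SD over 8 libraries), a level above that of 99.1% of the tested genes. SLC39A10 followed at 12.1 ± 1.08, MTF1 at 3.42 ± 0.210, MT1X at 2.80 ± 1.30 and SLC30A1 at 2.41 ± 0.360 CPM per kb, with the median of tested genes at 4.47. By these lengths MT2A was 20.1 times the level of SLC39A10 and 86.6 times that of MT1X. The lengths of MT2A (1299 bases) and MT1X (1773 bases) equal their whole span from start to end, any intron included. Those of SLC39A10, MTF1 and SLC30A1 cover only part of their spans. Ratios between these genes, and their order, therefore depend on the lengths used. MT1X, from 1.60 to 5.88 CPM per kb, overlapped both of its neighbours in this order. The lowest library of MTF1, 3.09 CPM per kb, lay just above the highest of SLC30A1, 3.04. MT2A accounted for 96.7% to 99.0% of all metallothionein counts in each library.

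To explore whether KRT19 overexpression went with a change of these genes, the groups were compared for each gene, with edgeR fitted to all 14621 tested genes and p-values adjusted over all of them. Of the 9 genes, 5 passed the filter on low counts and 4 did not. None of the 5 passed the adjusted threshold of 0.05 (0.00684% of all tested genes passed it), and 0 had an unadjusted p under 0.05, the study's own threshold (5.41% of all tested genes). DESeq2 and limma-voom, the latter with a quality weight for each library, also gave 0 at both thresholds. With these tools 3.97% and 9.14% of all tested genes had an unadjusted p under 0.05. In none of the 5 did the EV libraries and the KRT19 libraries stand apart without overlap, against 3.44% of all tested genes. The estimates were above 0 for 3 genes and below 0 for 2, with a median log2 fold change of 0.018 against 0.0051 over all tested genes. Of all tested genes, 2.85% were higher and 2.56% lower in KRT19 at an unadjusted p under 0.05, so that 52.7% of these 791 genes were higher, and the share was 40.5% of 796 genes with upper-quartile scaling.

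MT2A, the abundant metallothionein, did not differ between the groups beyond the spread of the libraries. Its levels were 281, 325, 322 and 323 CPM in EV replicates 1 to 4 and 318, 289, 308 and 352 CPM in KRT19 replicates 1 to 4. EV replicate 1 was the lowest of all libraries and KRT19 replicate 4 the highest, and the groups overlapped. EV libraries averaged 313 ± 21.2 CPM and KRT19 libraries 317 ± 26.2 CPM (SD, n = 4 each). Its log2 fold change came to 0.018 ± 0.062 (SE), with a 95% confidence interval from -0.11 to 0.15 (edgeR, unadjusted p = 0.773, adjusted p = 0.978, and exact permutation p = 0.886, two-sided). The sign of so small a value turned without EV replicate 1 (-0.030) and without KRT19 replicate 4 (-0.036).

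MT1X, the only other member of the family with more than a few counts, varied most. It had 64, 83, 70 and 66 counts (4.26, 5.00, 4.26 and 3.88 CPM) in the EV libraries and 78, 40, 178 and 65 counts (4.71, 2.84, 10.4 and 4.30 CPM) in the KRT19 libraries. KRT19 replicate 3 was the highest of all libraries at 2.49 times the mean of the other 7, and KRT19 replicate 2 was the lowest. EV libraries averaged 4.35 ± 0.469 CPM and KRT19 libraries 5.57 ± 3.33 CPM (SD, n = 4 each). Its log2 fold change came to 0.38 ± 0.28 (SE), with a 95% confidence interval from -0.20 to 0.96 (edgeR, unadjusted p = 0.188, adjusted p = 0.911, and exact permutation p = 0.714). Without KRT19 replicate 3 the KRT19 mean was 3.95 ± 0.980 CPM and the log2 fold change -0.13. Without KRT19 replicate 2 it was 0.58 with an unadjusted p of 0.0341 and an adjusted p of 0.898 (edgeR).

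**Figure D3:**
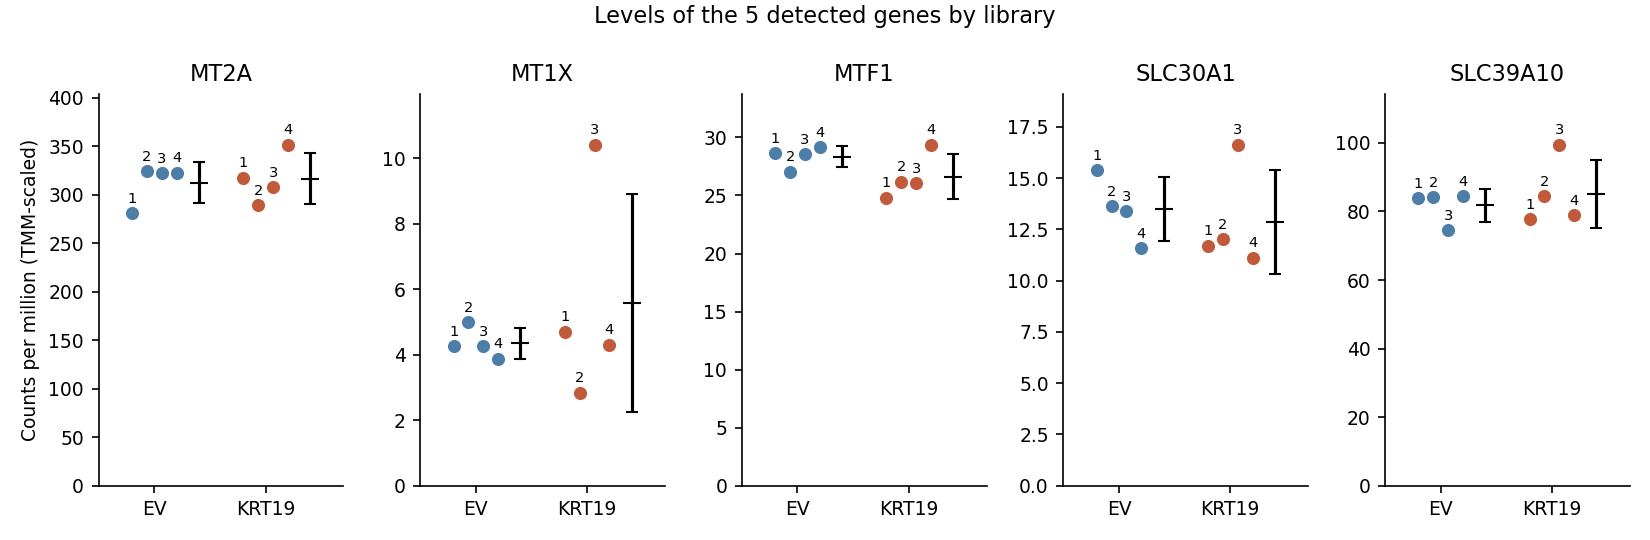
Level in CPM (vertical axes, each from 0) of the 5 detected genes in 4 EV and 4 KRT19 libraries, with each point labelled by its replicate number and the mean and SD of each group as a bar at its side. The groups overlap for all 5 genes, and KRT19 replicate 3 is the highest library for MT1X, SLC30A1 and SLC39A10.

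The high MT1X level of KRT19 replicate 3 had no counterpart in MT2A, for which this library ranked sixth of 8 from the top. MT1X held 3.27% of all metallothionein counts in that library (178 of 5440 counts, 95% exact binomial interval 2.82% to 3.78%). In the other 7 libraries its share was 0.975% to 1.52%, and the highest upper bound among them was 1.90%. For each MT1X count there were 29.6 MT2A counts in KRT19 replicate 3, 101.6 in KRT19 replicate 2 and 64.9 to 83.1 in the other libraries. These are bulk libraries, in which fewer cells with a transcript and less of it per cell cannot be told apart. Summed over all metallothionein rows, the level was 317 ± 21.4 in EV and 322 ± 26.4 CPM in KRT19 (SD, n = 4 each), a difference of 5.13 CPM that was smaller than the spread within either group.

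**Figure D4:**
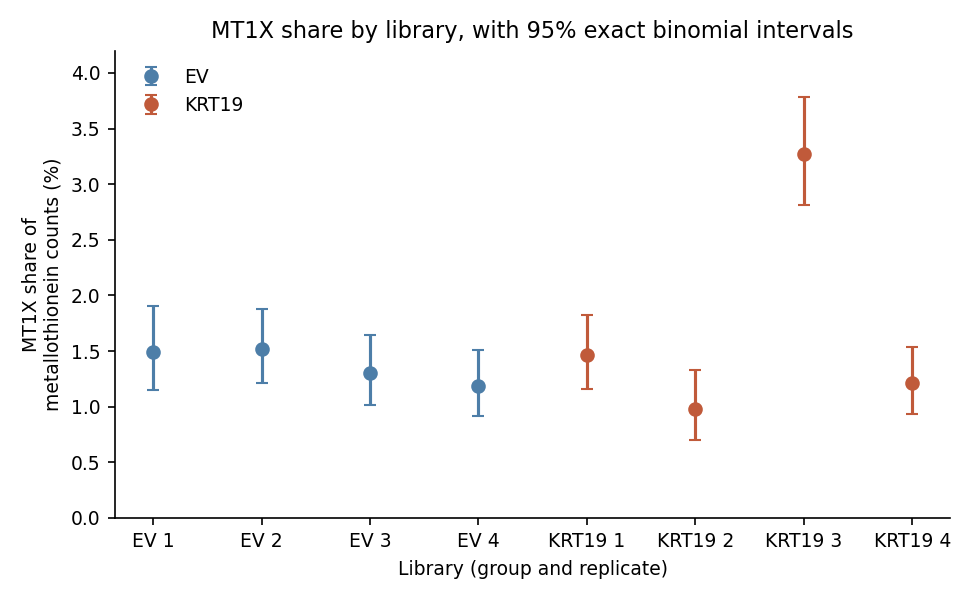
Share of MT1X among all metallothionein counts (percent, vertical axis) in each of the 8 libraries, with 95% exact binomial intervals as bars, which cover counting error only. KRT19 replicate 3 stands at 3.27%, with its interval above those of the other 7 libraries.

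MTF1 (ENSG00000188786, chr1:37809567-37859620), the zinc sensor, was at 28.6, 27.1, 28.5 and 29.2 CPM in the EV libraries and at 24.8, 26.2, 26.1 and 29.4 CPM in the KRT19 libraries. KRT19 replicates 1 to 3 lay below all EV libraries, and KRT19 replicate 4 lay above them. EV libraries averaged 28.4 ± 0.908 CPM and KRT19 libraries 26.6 ± 1.95 CPM (SD, n = 4 each), and KRT19 differed from EV by -0.09 ± 0.068 on the log2 scale (SE, 95% confidence interval -0.24 to 0.052, edgeR unadjusted p = 0.194, adjusted p = 0.914, exact permutation p = 0.143). Without KRT19 replicate 4 the log2 fold change was -0.14 (edgeR unadjusted p = 0.0657, adjusted p = 0.973).

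SLC30A1 (ENSG00000170385, chr1:211571568-211578742), the exporter under control of MTF1, was at 15.4, 13.6, 13.4 and 11.6 CPM in the EV libraries and at 11.7, 12.0, 16.6 and 11.1 CPM in the KRT19 libraries. KRT19 replicate 3 was the highest of all, at 1.31 times the mean of the other 7, KRT19 replicates 1 and 2 lay between the 2 lowest EV libraries, and KRT19 replicate 4 lay below all EV libraries. EV libraries averaged 13.5 ± 1.55 CPM and KRT19 libraries 12.9 ± 2.54 CPM (SD, n = 4 each), and KRT19 differed from EV by -0.06 ± 0.12 on the log2 scale (SE, 95% confidence interval -0.32 to 0.20, edgeR unadjusted p = 0.628, adjusted p = 0.966, exact permutation p = 0.629). Without KRT19 replicate 3 the KRT19 mean was 11.6 ± 0.458 CPM and the log2 fold change -0.21 (edgeR unadjusted p = 0.0528, adjusted p = 0.930). Without EV replicate 1 or KRT19 replicate 4 the sign turned, at 0.0056 and 0.0028, and with GC and length trends removed the value was -0.12.

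SLC39A10 (ENSG00000196950, chr2:195575977-195737702), the importer, was at 83.9, 84.2, 74.6 and 84.4 CPM in the EV libraries and at 77.7, 84.5, 99.5 and 78.9 CPM in the KRT19 libraries. EV replicate 3 was the lowest and KRT19 replicate 3 the highest, at 1.23 times the mean of the other 7. EV libraries averaged 81.8 ± 4.80 CPM and KRT19 libraries 85.2 ± 10.0 CPM (SD, n = 4 each), and KRT19 differed from EV by 0.059 ± 0.074 on the log2 scale (SE, 95% confidence interval -0.097 to 0.21, edgeR unadjusted p = 0.435, adjusted p = 0.952, exact permutation p = 0.657). Without KRT19 replicate 3 the log2 fold change was -0.026, and with GC and length trends removed it was 0.0024.

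KRT19 replicate 3 thus stood highest for MT1X, SLC30A1 and SLC39A10, 3 of the 5 detected genes, and was the highest library for 23.2% of all tested genes, where the others were highest for 8.64% to 15.3%. Its mean deviation from its group was 0.203 on the log2 CPM scale, against 0.140 to 0.172 in the others. The part of this library in the values of the 3 genes was not tested beyond the values without it. Over the 8 libraries Pearson's r of log2 CPM was 0.69 between MT1X and SLC30A1, 0.67 between MT1X and SLC39A10 and 0.64 between SLC30A1 and SLC39A10, and without KRT19 replicate 3 these were 0.25, -0.34 and 0.17. The 3 genes are set together because that library was their highest, so these values describe it and give no further support.

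The pattern of MT2A over the 8 libraries was set beside those of the other detected genes. Pearson's r of log2 CPM with MT2A was 0.29 for MTF1, 0.12 for MT1X, -0.34 for SLC39A10 and -0.51 for SLC30A1, which placed these genes 3652, 5790, 11435 and 13128 among 14620. Without KRT19 replicate 3, r was 0.28 for MTF1, 0.47 for MT1X, -0.46 for SLC39A10 and -0.60 for SLC30A1. The genes most like MT2A were ADCK5 (r = 0.947), UQCC1 (0.947), GPRASP1 (0.944), ADAMTS16 (0.943) and CYBC1 (0.940), with Spearman's rank correlation from 0.690 to 1. They are given as a description, since they were picked as the highest of 14620 values over only 8 libraries that share their depth and scaling.

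Other zinc transporters were compared in the same fit. Of 9 further exporters of the SLC30 family, 6 were tested and 0 had an unadjusted p under 0.05 with edgeR or DESeq2. With limma-voom, which gave 9.14% of all tested genes, 1 did (SLC30A4, lower in KRT19, with an edgeR log2 fold change of -0.16 ± 0.10 and an unadjusted p of 0.124). Their median log2 fold change was 0.0058. The most counted of them, SLC30A9 and SLC30A6, were at 94.8 ± 4.58 and 51.3 ± 4.24 CPM in EV and at 97.2 ± 6.01 and 51.8 ± 3.31 CPM in KRT19 (SD, n = 4 each). Of 13 further importers of the SLC39 family, 10 were tested and 0 had an unadjusted p under 0.05 with any of the 3 tools, with a median of -0.016. The most counted importers were SLC39A7, which releases zinc from the endoplasmic reticulum, at 137 ± 9.18 CPM in EV and 137 ± 6.78 in KRT19, and SLC39A14, which also carries iron and manganese, at 105 ± 4.78 and 105 ± 4.69 CPM (SD, n = 4 each).

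**Figure D5:**
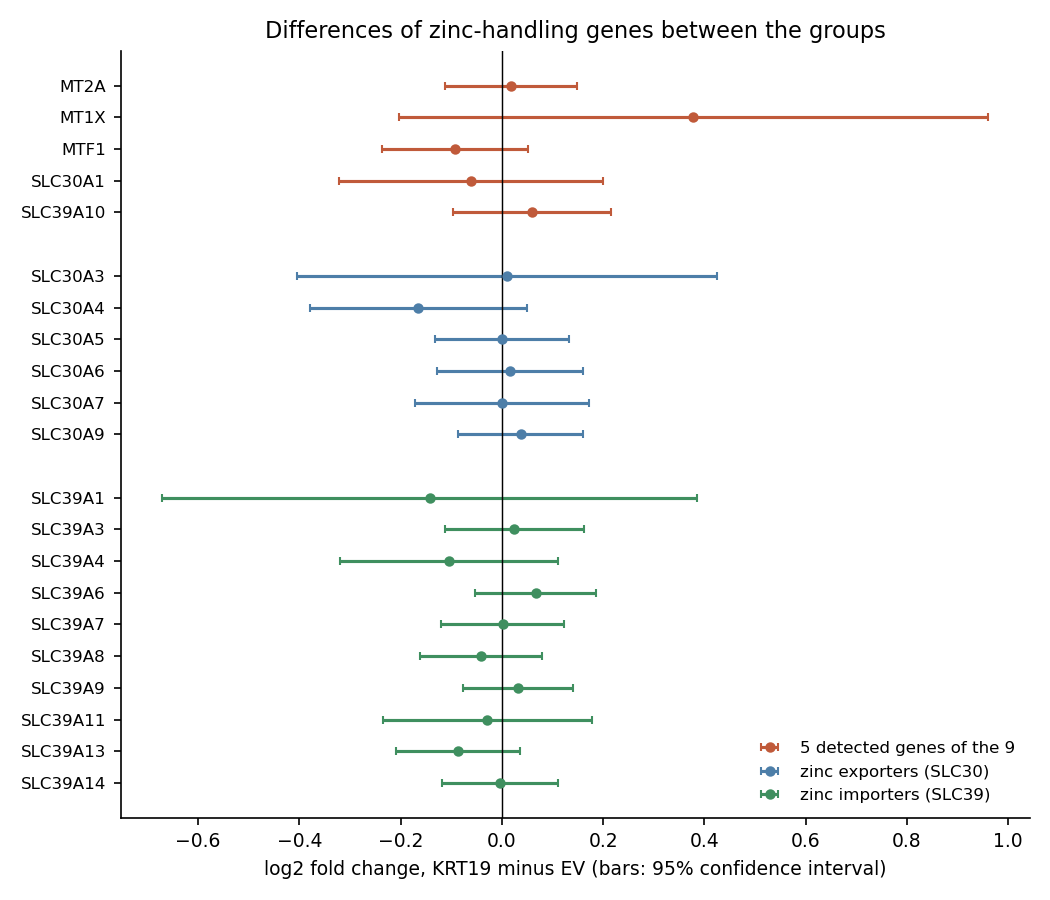
Log2 fold change of KRT19 over EV (horizontal axis) with its 95% confidence interval for the 5 detected genes of the 9 and for the tested zinc exporters and importers. All intervals drawn include 0, and that of MT1X, from -0.20 to 0.96, is among the widest.

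Genes of copper and iron handling, of heat shock and heavy metals, and of the glucocorticoid response were looked at next. Metallothioneins also respond to copper, to cadmium and to glucocorticoids, and the iron genes cover a further metal. In the lists of copper handling, heat shock and heavy metal, glucocorticoid and iron genes, 49 genes were tested, and 0 passed the adjusted threshold with edgeR, DESeq2 or limma-voom. At an unadjusted p under 0.05, edgeR gave 5 of the 49 (10.2%, against 5.41% of all tested genes), 2 higher and 3 lower in KRT19, and the median log2 fold change of the 49 was -0.0039. With the zinc transporters and the other metallothioneins, of which the latter had 0 genes tested, this came to 5 of 64 genes (7.81%).

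Of 13 heat shock and heavy metal genes tested, 2 were higher and 1 lower at an unadjusted p under 0.05 with edgeR and with DESeq2, with a median of 0.039. With limma-voom 4 were higher and 1 lower, HSPA8 and HSPD1 being added, under a tool that gave 9.14% of all tested genes. HMOX1, the heme oxygenase that metals and oxidants induce, was at 58.9, 59.7, 59.4 and 54.5 CPM in the EV libraries and at 54.8, 52.6, 41.2 and 44.7 CPM in the KRT19 libraries, with a log2 fold change of -0.27 ± 0.079 (SE, edgeR unadjusted p = 0.00335, adjusted p = 0.869). Its lowest EV library lay just below the highest KRT19 library, so the groups overlapped. Without KRT19 replicate 3, its lowest library, the log2 fold change of HMOX1 was -0.20 ± 0.066 (SE, edgeR unadjusted p = 0.00685, adjusted p = 0.903). The chaperone HSP90AA1 was at 3290, 3354, 2903 and 3222 CPM in the EV libraries and at 3430, 3519, 4525 and 3638 CPM in the KRT19 libraries, with no overlap and a log2 fold change of 0.24 ± 0.073 (SE, edgeR unadjusted p = 0.00403, adjusted p = 0.869). KRT19 replicate 3 was again the highest library, and without it the log2 fold change was 0.14 ± 0.046 (SE, edgeR unadjusted p = 0.00449, adjusted p = 0.841). The mitochondrial chaperonin HSPE1 had a log2 fold change of 0.14 ± 0.055 (SE, edgeR unadjusted p = 0.0216, adjusted p = 0.906), and HSPA8, the most counted chaperone beside HSP90AA1, one of 0.039 ± 0.045 (SE, edgeR unadjusted p = 0.397, but under 0.05 with limma-voom). Without KRT19 replicate 3 the list had 3 genes higher and 1 lower at this threshold.

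Among 13 tested copper handling genes, 1 had an unadjusted p under 0.05 with edgeR and DESeq2 (5.41% and 3.97% of all tested genes). With limma-voom (9.14%) there were 2, SLC31A2 being added (edgeR log2 fold change -0.44 ± 0.30, SE, unadjusted p = 0.155). The gene that all 3 tools gave was CCS, the copper chaperone for superoxide dismutase, at 20.6 ± 1.57 CPM (EV) and 18.0 ± 1.27 CPM (KRT19, SD, n = 4 each), with a log2 fold change of -0.19 ± 0.082 (SE, edgeR unadjusted p = 0.0306, adjusted p = 0.906). SOD1, the superoxide dismutase it loads, was at 189 ± 7.96 and 182 ± 7.58 CPM, and ATOX1, another copper chaperone, at 150 ± 16.7 and 146 ± 16.8 CPM (EV and KRT19, SD, n = 4 each). Without KRT19 replicate 3 the log2 fold change of CCS was -0.22. Among 10 tested glucocorticoid-responsive genes, 1 had an unadjusted p under 0.05 with each of the 3 tools. ANGPTL4, a secreted inhibitor of lipoprotein lipase, was at 213, 198, 212 and 212 CPM in the EV libraries and at 196, 185, 153 and 167 CPM in the KRT19 libraries, with no overlap and a log2 fold change of -0.25 ± 0.066 (SE, edgeR unadjusted p = 0.00136, adjusted p = 0.712). KRT19 replicate 3 was its lowest library, and without it the log2 fold change of ANGPTL4 was -0.19 ± 0.052 (SE, edgeR unadjusted p = 0.00142, adjusted p = 0.567). GADD45A, the most counted gene of this list after ANGPTL4, was at 74.2 ± 2.87 CPM in EV and 75.8 ± 5.17 in KRT19 (SD, n = 4 each). Among 13 tested iron genes, 0 had an unadjusted p under 0.05 with edgeR, DESeq2 or limma-voom, and the median log2 fold change was 0.00050. FTL, the ferritin light chain, was at 1300 ± 38.1 CPM (EV) and 1329 ± 42.4 CPM (KRT19), and TFRC, the transferrin receptor, at 243 ± 5.48 and 247 ± 15.2 CPM (SD, n = 4 each).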

How the data were processed

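RNA-seq counts of 8 libraries (4 EV, 4 KRT19; cells labelled A549) were used, with groups and replicate numbers taken from the titles. The values used are the read counts of each gene as deposited by the authors, not normalized, with gene coordinates. The submitters' processing notes name Bowtie 0.12.2, featureCounts 1.5.0-p3, DESeq2 and hg38, without their roles. Strand and the treatment of multiply matching reads were not given in the sources used here. All 58735 identifiers were found in GENCODE 29, and 58724 had the same start and end.

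The analysis used edgeR 4.0.16 in R 4.3.3 (filterByExpr, TMM, glmQLFit and glmQLFTest on the group, two-sided, Benjamini-Hochberg threshold 0.05 over all 14621 tested genes). limma 3.58.1 (voom with a quality weight for each library) and DESeq2 1.42.0 were alternatives. CPM used TMM-scaled library sizes, and log2 CPM a prior count of 2. The SE of a log2 fold change was obtained by dividing it by the root of its quasi-likelihood F. Exact permutation tests were two-sided over 70 allocations, with a smallest p of 0.0286. The floor of a library was 3 counts. Intervals and floors cover counting error only, since no molecular identifiers were named. The procedure was tested on simulated data.

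The members and lists were chosen with earlier results of these data known. Named are the 9 genes, KRT19, the cell type markers, the 5 genes with the highest r with MT2A, and of each list the genes past the adjusted threshold, up to 3 with the lowest unadjusted p under 0.05 and the 2 most counted. Genes of the metallothionein cluster and its sides, SLC30A4, SLC31A2 and HSPD1 under limma-voom, and MT3 and MT4 were named after their values were seen. SLC39A14 stands in 2 lists and was counted once in the total. Alternatives were other scalings, filters and tools, the replicate number as a block, GC and length trends removed (natural splines, 5 degrees of freedom), and each library left out. Of the cell type markers, 3 are not reported here.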

Additional observations from a re-analysis of the deposited data

Results flagged for a closer look

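In a group of 4 libraries, a single library was set far from the other 3 where its gap to the nearest divided by the range exceeded the 95% critical value of Dixon's test. This held for 4 of 14 groups of values examined, of which 2 are nearly the same values (MT2A and the metallothionein total). Chance flags about 1 in 20 groups, and 5.52% of the groups of all tested genes exceeded the same limit. MT2A was low in EV replicate 1 (281 CPM, while the remaining EV libraries were at 322 to 325), with a gap of 0.954 of the range of log2 CPM. The metallothionein total, which is nearly all MT2A, was low in the same library, at 285 CPM, with a gap of 0.937. SLC39A10 was low in EV replicate 3 (74.6 CPM against 83.9 to 84.4), with a gap of 0.957. KRT19 itself was lowest of its group in KRT19 replicate 3 (288 CPM against 310 to 311), with a gap of 0.949. MT1X in KRT19 replicate 3 did not exceed the limit on the log2 scale, because KRT19 replicate 2 was low.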

How the results depend on the processing

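The count of 0 of the 5 tested genes past the adjusted threshold held under all 17 alternatives. At an unadjusted p under 0.05 the count was 1, MT1X, when genes with at least 1 count were kept, and 0 to 1 over the fits without 1 library, the 1 being MT1X without KRT19 replicate 2. With at least 5 CPM in 4 libraries MT1X was not tested. Estimates turned in sign for MT1X (-0.00048 with limma-voom, -0.13 without KRT19 replicate 3), SLC39A10 (-0.021 and -0.026 in the same fits), MT2A (-0.030 without EV replicate 1, -0.036 without KRT19 replicate 4) and SLC30A1 (0.0056 and 0.0028 in the same fits). MTF1 stayed below 0 in all. Without 1 library the log2 fold change ran from -0.036 to 0.059 for MT2A, -0.13 to 0.58 for MT1X, -0.14 to -0.060 for MTF1, -0.21 to 0.0056 for SLC30A1 and -0.026 to 0.10 for SLC39A10. Over all genes, 1 passed the adjusted threshold, and 5 with DESeq2, 8 with limma-voom, 71 with at least 1 count kept, 5 with GC and length trends removed, 8 with these and the replicate block, and 1 to 5 without 1 library (3 without EV replicate 1, 5 without KRT19 replicate 3). The 791 genes at an unadjusted p under 0.05 became 1559 with at least 1 count kept, 1337 with limma-voom, 1197 with the trends removed, 1228 without KRT19 replicate 1 and 451 with the replicate block. Of the 5 genes of the 7 lists at an unadjusted p under 0.05, the count was 9 with limma-voom, 8 with the trends removed, 3 with the replicate block and 3 to 9 without 1 library (9 without KRT19 replicate 1, 3 without EV replicate 4 or KRT19 replicate 4). The cause of these shifts was not tested. The difference in metallothionein total, 5.13 CPM, ran from -6.18 to 15.3 without 1 library, within the spread between libraries. Residual correlations of same-numbered libraries were -0.111, -0.0239, -0.159 and 0.0567, and 1 of 4 libraries correlated best with its own number. These values showed no clear effect shared by same-numbered libraries, but they cannot tell whether the libraries were prepared in pairs. Exact permutation under 3 other scalings, chosen after seeing the data, gave 0 genes under 0.05. With GC and length trends removed, SLC39A10 was at 0.0024 and SLC30A1 at -0.12. MT1E, MT1F, MT1G and MT1M, at 0 counts, had no test, and the cause of their 0 counts was not tested.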
